A study of Mus musculus with 2 samples.

Results

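Genes whose messages end in more than 1 last exon were collected from long reads of RNA from the left cerebral cortex, and were chosen by their read counts. A protein-coding gene was assessed when at least 50 reads, pooled over both libraries, lay on annotated models of more than 1 exon. The acceptor of a last exon is the splice site at which that exon begins, and an acceptor was called used when it held at least 20% of those reads. Of 3751 genes assessed, 810 had reads at 2 or more last-exon acceptors and 102 (2.72%) had 2 or more used acceptors. Among the 102 genes, 99 had 2 used acceptors and 3 had 3. They held 2.62% of the reads of all assessed genes, with a median of 108.5 pooled reads each, against 116 over all assessed genes. Because the reads chose the genes, their pooled shares are given as a description with no test, and only differences between the libraries and pairings with first exons were tested.

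A messenger RNA ends where cleavage and polyadenylation cut the transcript, and the last splice before that point selects the last exon. Genes can place a second terminal exon inside an intron, extend an internal exon past its donor into a terminal one, or start the same last exon at different acceptors. Such choices replace the C terminus of the protein, the 3' untranslated region, or both, and brain tissue is known for them, as in the small GTPase Cdc42, the NMDA receptor subunit Grin1 and the synaptic scaffold gene Homer1.

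The tissue came from B6CASTF1/J mice, hybrids of the laboratory strain C57BL/6 with the wild-derived CAST strain, and the mice were 18 to 20 months old. There was 1 group with 2 libraries, numbered 2 and 1 as biological replicates, each made from 2 µg of RNA with spike-in RNAs added, and no treatment or genotype was varied. Both libraries carry the same donor entry, so separate animals are not shown, and the labels give the sex as female in one field and as male in another. All tests between the libraries therefore measure counting error in these libraries as sequenced. Replicate 2 held 839150 reads, of which 679147 lay on annotated genes and 436954 on annotated multi-exon models of coding genes. Replicate 1 held 871524, 774629 and 522847 such reads. Cortical markers were present in both: Slc17a7 of excitatory neurons stood at 973 CPM (reads scaled to a common total of annotated reads) in replicate 2 and 1142 CPM in replicate 1, and Aldoc of astrocytes at 2509 CPM and 2370 CPM in the same order. Of the choroid plexus markers, Folr1 and Otx2 had 0 reads and Ttr had 5 in replicate 2 and 18 in replicate 1. The thalamic markers Gbx2 and Zic1 had 0 reads, while the striatal genes Ppp1r1b (350 CPM in replicate 2 and 378 CPM in replicate 1) and Penk (194 CPM and 231 CPM) were present. Their part in any result here was not tested.

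The used acceptors are set out first by the bases that were joined. Each line gives the last 15 bases of the preceding exon in lower case and the first 15 bases of the last exon in capitals, 5' to 3', from the GENCODE M21 transcript that held the most reads of that form, on mm10. "Distal" is the acceptor farther along the transcript and "proximal" the nearer one. The first set shows genes in which 1 donor was joined to last exons that lie apart, so that the lower-case bases are the same and the capitals differ. In Cdc42 the distal last exon is chr4:137319696-137321192 and the proximal one chr4:137321762-137322619, both on the minus strand. For Rundc3a they are chr11:102401981-102402555 and chr11:102401389-102401754 on the plus strand. Lamp2 has 3 on the minus strand, the distal at chrX:38401357-38402281, the middle at chrX:38405062-38405571 and the proximal at chrX:38419507-38421851.
Cdc42 distal: tctgccctcacacagAAAGGCCTAAAGAAT
Cdc42 proximal: tctgccctcacacagAGAGGTCTGAAGAAT
Rundc3a distal: cctggggccccatcgGGAAGGACCCCACGC
Rundc3a proximal: cctggggccccatcgGAAGCTCAGAACCAA
Lamp2 distal: gacagtattctacagCTGAGGAATGTGCTG
Lamp2 middle: gacagtattctacagCTCAAGACTGCAGTG
Lamp2 proximal: gacagtattctacagCCCAGGAGTGTTCGC

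The second set shows acceptors that lie 2 to 5 nt apart in the same last exon, so that the proximal form only adds a few bases at the start of the capitals. Tcf25 (last exons ending at chr8:123403806, plus strand) and Ptbp2 (chr3:119718742-119720460 for the proximal form, minus strand) differ by 3 nt, Mapk10 (chr5:102907948-102913332 for the proximal form, minus strand) by 5 nt and Grk6 (chr13:55459782-55460927 for the proximal form, plus strand) by 2 nt.
Tcf25 distal: aattacaccacagagCTGTAAGTCCATCCG
Tcf25 proximal: aattacaccacagagCAGCTGTAAGTCCAT
Ptbp2 distal: atttaagttttttcaAGATCACAAAATGGC
Ptbp2 proximal: atttaagttttttcaAAGAGATCACAAAAT
Mapk10 distal: agccctcgccttcagGTGCAGCAGTGAACA
Mapk10 proximal: agccctcgccttcagCACAGGTGCAGCAGT
Grk6 distal: ctcttcagtcgccaaGATTGCTGTGGGAAC
Grk6 proximal: ctcttcagtcgccaaAGGATTGCTGTGGGA

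The third set shows pairs in which the coding end changes and the exons overlap or the proximal exon is also spliced onward. Syn1 (chrX:20860511-20861571 distal, chrX:20860515-20861609 proximal, minus strand) and Gpm6b (chrX:166386952-166388988 distal, chrX:166385391-166388988 proximal, plus strand) keep 1 donor. Grin1 (chr2:25291181-25292128 distal, chr2:25291181-25292484 proximal, minus strand) and Homer1 (chr13:93402041-93403681 distal, chr13:93355940-93360462 proximal, plus strand) join different exons to their last exons.
Syn1 distal: gcacccccagctcaaAGCCAGCCCCTCCCA
Syn1 proximal: gcacccccagctcaaCAAATCCCAGTCTCT
Gpm6b distal: accgtcattgccctgATCCACTTCCTCATG
Gpm6b proximal: accgtcattgccctgCTGATCTACATGATG
Grin1 distal: aggaagaacctgcagCAGTACCATCCCACT
Grin1 proximal: tcctccaaagacacgAGCACCGGGGGTGGA
Homer1 distal: actcagaaactacagGAAGTTGAAATTCGA
Homer1 proximal: agtaccccttcacagGAATCAGCAGGAGGA

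By structure, the 2 leading acceptors of the 102 genes fell into 3 classes. In 48 genes the last exons overlapped. In 33 the proximal exon did not overlap the distal one and was also an internal exon in annotated models with reads. In 21 the proximal exon was separate and, among annotated models with reads, used only as a last exon. Models outside the annotation were not searched for such internal use. Acceptors lay a median of 383 nt apart in the overlapping class (range 2 to 2891), 6251 nt apart where the proximal exon was also internal (654 to 378772) and 17445 nt apart for separate terminal exons (592 to 114751). The distal acceptor held more reads than the proximal one in 58 of 102 genes, with 27 of 48, 19 of 33 and 12 of 21 in these classes in turn. The distal model was the longer RNA in 56 of 102 genes, in 16 of 48 overlapping pairs, 23 of 33 pairs with an internal proximal exon and 17 of 21 separate pairs.

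**Figure D1:**
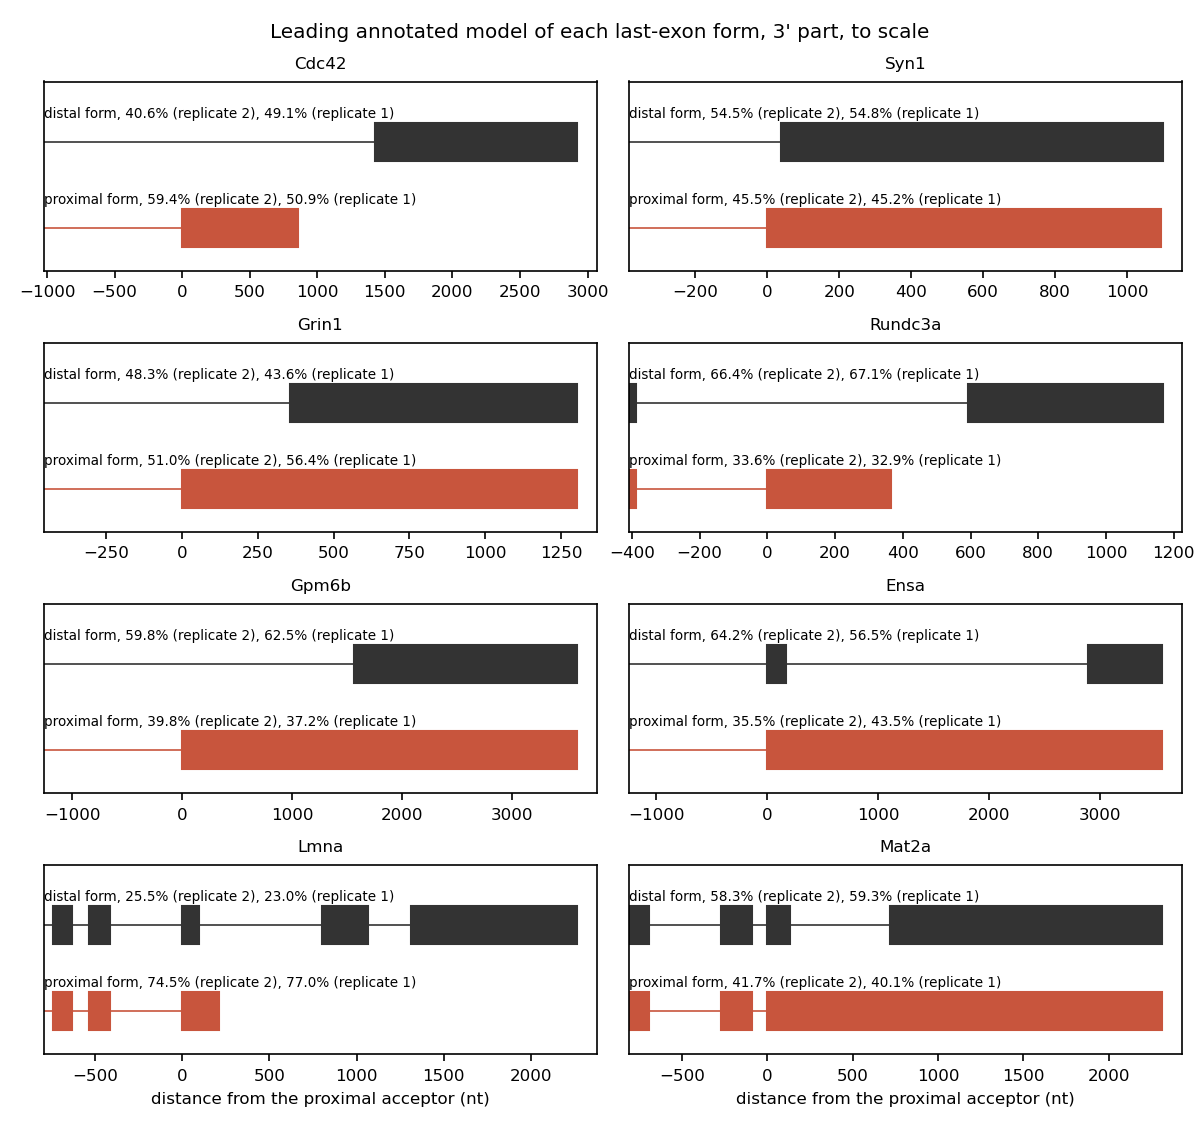
Last exons of 8 genes drawn to scale from the most-read annotated model of each form, distal form above proximal form, with distance from the proximal acceptor in nt on the horizontal axis and the share of reads of each form in replicate 2 and replicate 1 printed above it. Boxes are exons and lines are introns. Cdc42 and Rundc3a have separate terminal exons, Syn1, Grin1, Gpm6b, Ensa and Mat2a overlapping ones, and in Lmna the proximal exon is also internal.

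Separate terminal exons came with different annotated coding ends in nearly every gene. Last exons that lie apart cannot hold the same stop codon, so this follows largely from how the class is defined. A stop upstream of a last exon can still be shared. In the class with an internal proximal exon, where last exons also lie apart, stops were the same in 2 of 33 pairs. Of the 21 pairs, 20 had annotated coding sequences with different stop codons, and in the other, Cep83, the distal form alone was annotated as coding. The upstream donor was shared in 8 of the 21 pairs, at a median distance of 2620 nt, and differed in 13, at a median of 21228 nt. In 2 of the 21 pairs the leading models of the forms did not overlap anywhere, so they share no exon.

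Olfm1, which encodes secreted olfactomedin glycoproteins of neurons, had the most reads of any member, 1272 in replicate 2 and 1585 in replicate 1. The distal exon, which completes the olfactomedin-domain protein of 485 residues, held 509 of them in replicate 2 (95% Wilson interval of the share 37.4% to 42.7%) and 737 in replicate 1 (44.1% to 49.0%). The proximal exon ends a short form of 153 residues and led in both libraries.

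In Cdc42, a small GTPase that organises actin, both forms encode 191 residues with different C termini. The distal exon gives the widely expressed form, which is prenylated, and the proximal exon the brain form, which can also carry palmitate. The distal form held 40.6% of 202 reads (34.1 to 47.5) in replicate 2 and 49.1% of 224 (42.6 to 55.6) in replicate 1, so the intervals overlap.

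The RUN-domain gene Rundc3a held 66.4% of 363 reads at its distal exon in replicate 2 and 67.1% of 413 in replicate 1. Its forms were annotated with 446 residues for the distal end and 405 for the proximal end. Ppm1b, a metal-dependent protein phosphatase, held 69.1% of 136 reads at the distal exon in replicate 2 and 63.9% of 147 in replicate 1. In both genes the distal acceptor led in each library.

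Lamp2, a lysosomal membrane protein with alternative last exons for its transmembrane and cytosolic ends, was 1 of the genes with 3 used acceptors. The distal exon, which encodes the 2C end, held 32.9% of 79 reads in replicate 2 and 36.1% of 83 in replicate 1. The middle exon, the 2A end that serves chaperone-mediated autophagy, held 30.4% in replicate 2 and 25.3% in replicate 1. The proximal exon, the 2B end, held 36.7% and 38.6%, again with replicate 2 first. No form held most of the reads in either library.

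Psip1, a chromatin-binding factor, also had 3, with the distal exon of the long p75 form at 27.9% of 104 reads in replicate 2 and 38.3% of 115 in replicate 1. Its other acceptors held 52 and 23 reads in replicate 2, and 44 and 26 in replicate 1, and begin overlapping last exons of the p52 type. Tpm3, a tropomyosin with alternative C-terminal exons, held 70.9% of 55 reads at the distal exon in replicate 2 and 64.6% of 65 in replicate 1. Tpm3 reads on models outside the annotation, given below, lay more strongly at the distal exon.

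The GABA-B receptor subunit gene Gabbr1 gave a full receptor form of 844 residues from the distal exon and a truncated form of 229 residues from the proximal one. The distal exon held 36.8% of 114 reads in replicate 2 and 28.5% of 137 in replicate 1. These distal reads, 42 in replicate 2 and 39 in replicate 1, all came from a first donor that lies past the proximal exon. The Gabbr1 share therefore compares different first exons as well as different last exons. Cyhr1 and Pnkd were also among the 6 genes of this class with the most reads. Their distal shares were 54.4% in replicate 2 and 58.2% in replicate 1 for Cyhr1, and 83.9% and 70.9% for Pnkd, the gene of a familial paroxysmal dyskinesia. In Cyhr1 the leading first donor also lies past the proximal exon, and its 66 reads in replicate 2 and 104 in replicate 1 were all distal. The second first donor of Pnkd lies past it too, and its 23 reads in replicate 2 and 28 in replicate 1 were all distal. From the leading donor of Pnkd, 80.7% of 88 reads were distal in replicate 2 and 65.5% of 110 in replicate 1. Epha7, an ephrin receptor, stood just inside the threshold: the distal, kinase-bearing form of 998 residues held 7 of 35 reads in replicate 2 and 8 of 39 in replicate 1, and the truncated proximal form of 610 residues held 24 and 30.

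Overlapping last exons were of 2 main kinds. In 28 of the 48 genes the distal form spliced out an intron that lies inside the proximal form's last exon, and in 19 a single donor was joined to either acceptor. In Grin1, the remaining gene, the donors differed and no donor of the distal form lay inside the proximal last exon. Stops were the same in 27 of the 48, different in 18, and 3 had no annotated coding sequence in 1 or both forms.

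Among the 19 pairs with a shared donor, 10 lay within 12 nt and 8 of them exactly 3 nt apart. In all 10 the bases between the acceptors, which the proximal form alone includes, ended in AG, the bases that precede an acceptor. They lie just before the distal acceptor, so that ending follows from its being an acceptor. In 7 of the 8 pairs at 3 nt the bases between were CAG. Ptbp2 had AAG. The proximal acceptor of the 3-nt pairs held more reads in 6 of 8 genes. Tcf25, a ribosome-associated factor, held 47.5% of 320 reads at the distal site in replicate 2 and 45.6% of 417 in replicate 1, and another same-strand gene, Gm20388, overlaps it. Trim32, a ubiquitin ligase, held 34.5% of 177 in replicate 2 and 34.0% of 212 in replicate 1. Ctbp1, a transcriptional corepressor, held 49.6% of 121 in replicate 2 and 49.3% of 146 in replicate 1. That near-even share is of annotated models only, and Ctbp1 reads on models outside the annotation, given below, lay mostly at the proximal acceptor. Shares of these 3 genes differed by less than 2 points between the libraries, but those of 3-nt pairs with fewer reads could differ more. The polarity gene Pard6a had 13 of 47 distal reads in replicate 2 and 18 of 40 in replicate 1, and D030056L22Rik had 10 of 33 and 9 of 46. A read error of a few bases at such a junction was not tested.

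Frame shifts of 5 and 2 nt changed the coding end. Mapk10, the neuronal JNK3 kinase, held 62.0% of 71 reads at the distal acceptor in replicate 2 and 65.3% of 95 in replicate 1, with 464 residues for the distal form and 422 for the proximal one. Grk6, a receptor kinase, held 57.9% of 57 in replicate 2 and 67.1% of 73 in replicate 1, with 576 and 589 residues for distal and proximal forms.

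Larger steps from a shared donor included Syn1, Gpm6b and Qk. Syn1, which encodes the vesicle-associated phosphoprotein synapsin I, held 54.5% of 255 reads at the distal acceptor in replicate 2 and 54.8% of 217 in replicate 1. The acceptors lie 38 nt apart, and the distal one gives synapsin Ib of 670 residues and the proximal one synapsin Ia of 706. Gpm6b, a proteolipid-family membrane protein of neurons and glia, held 59.8% of 731 in replicate 2 and 62.5% of 854 in replicate 1 at the distal acceptor, with C termini of different sequence. Qk, an RNA-binding protein that regulates myelin messages, held 61.0% of 82 in replicate 2 and 61.4% of 83 in replicate 1 at the distal acceptor of the QKI-6 form. Its proximal acceptor, of the QKI-7 form, held 18 reads in replicate 2 and 19 in replicate 1.

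Grin1 encodes the obligatory NMDA receptor subunit, whose C-terminal cassettes set its trafficking. The distal acceptor, giving 885 residues, held 48.3% of 149 reads in replicate 2 and 43.6% of 149 in replicate 1, and the proximal one, giving 938 residues, held 51.0% and 56.4%. The intervals of both libraries overlap, and Grin1os lies on the opposite strand.

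Introns within the last exon were spliced or kept in comparable numbers in several genes with many reads. The distal, spliced form of Ensa, an inhibitor of protein phosphatase 2A, held 64.2% of 310 reads in replicate 2 and 56.5% of 329 in replicate 1. The splice removes most of the proximal exon of 3562 nt, leaving a distal last exon of 671 nt. Mat2a, the S-adenosylmethionine synthetase, held 58.3% of 192 in replicate 2 and 59.3% of 177 in replicate 1. Hras and Gnao1, a small GTPase and the alpha subunit of the G protein Go, kept the same stop and the same protein length in both forms (189 and 354 residues). The distal share of Hras was 53.4% in replicate 2 and 51.3% in replicate 1, and that of Gnao1 was 44.2% and 44.1%. The ubiquitin ligase Pja1 (29.3% in replicate 2, 25.7% in replicate 1) and the granin gene Scg2 (42.3% in replicate 2, 41.6% in replicate 1) had more reads on the proximal, unspliced form in each library. For the ubiquitin ligase Dtx3, the distal share was 59.8% in replicate 2 and 67.5% in replicate 1.

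Proximal exons that were also internal included composite exons, in which an internal exon runs past its donor and ends the transcript. In 29 of these 33 genes, a donor of the distal form lay inside the proximal last exon. Coding ends differed in 19 genes and were the same in 2, and in 9 the distal form alone was annotated as coding.

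Homer1 is the most familiar of them. The distal form of 366 residues carries the coiled coil that cross-links the postsynaptic scaffold, and the proximal form, Homer1a, has 186 residues and is induced by activity. Distal reads were 62 of 115 in replicate 2, or 53.9% (44.8 to 62.7), and 58 of 76 in replicate 1, or 76.3% (65.6 to 84.5). Homer1a reads were 45 in replicate 2 and 15 in replicate 1.

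Syn2, the synapsin II gene, held 41.5% of 224 reads at the distal acceptor in replicate 2 and 42.2% of 237 in replicate 1, and its leading proximal model is annotated as a retained intron. Rexo2, an oligoribonuclease, held 67.8% in replicate 2 and 58.5% in replicate 1 at the distal acceptor, also with a proximal model annotated as a retained intron. Atp2a2, the endoplasmic reticulum calcium pump SERCA2, held 62.6% of 91 at the distal acceptor in replicate 2 and 59.4% of 128 in replicate 1, and its leading distal model is annotated as a target of nonsense-mediated decay. The ubiquitin ligase Mkrn1 held 74.1% at the distal acceptor in replicate 2 and 75.7% in replicate 1. Nap1l1, a histone chaperone, held 58.2% in replicate 2 and 48.1% in replicate 1. In Stau2, a double-stranded RNA-binding protein, the distal shares were 29.7% in replicate 2 and 26.4% in replicate 1, over a distance of 116145 nt.

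In Lmna the proximal acceptor of lamin C (574 residues) held most reads. Its distal acceptor, of lamin A (665 residues), held 25.5% of 47 reads in replicate 2 and 23.0% of 61 in replicate 1. Slc1a2, the astrocyte glutamate transporter GLT-1, held 63.0% of 46 reads in replicate 2 and 75.8% of 33 in replicate 1 at the distal acceptor of its 572-residue form, and its distal last exon of 9322 nt was the longest among the members. The longest distances between leading acceptors were 378772 nt in A830018L16Rik, 116145 nt in Stau2 and 114751 nt in Acbd6. For A830018L16Rik, 4 of 24 reads were distal in replicate 2 and 11 of 28 in replicate 1.

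**Figure D2:**
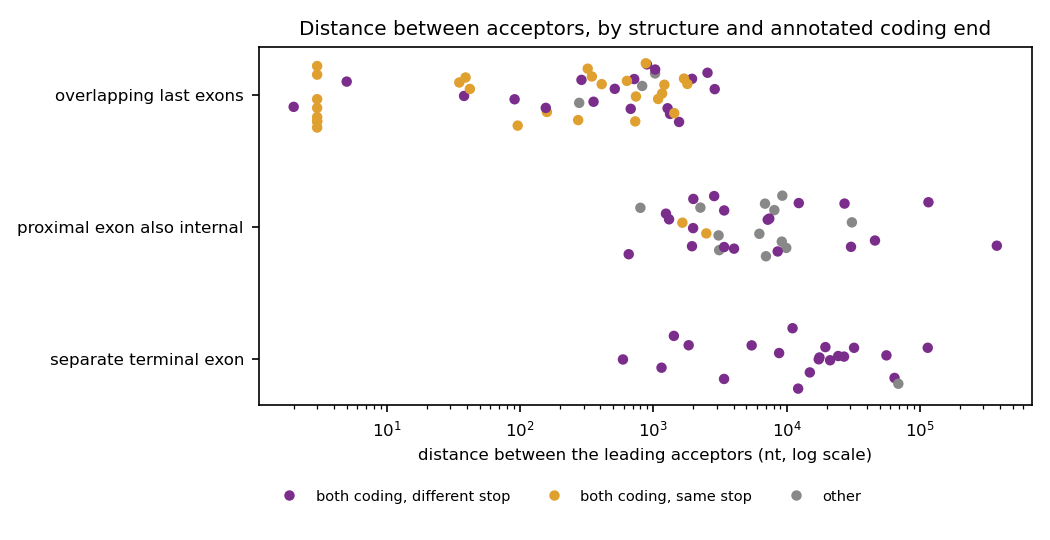
Distance between the leading acceptors in nt, on a log scale, for the 102 genes by structural class, with 1 point per gene, spread vertically for visibility, coloured by whether the annotated stop codons of the leading models differ. Purple points (different stop) make up 20 of the 21 separate terminal exons and 18 of the 48 overlapping pairs.

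Over all 102 genes, the annotated stops differed in 57, were the same in 29, and could not be compared in the other 16. In 12 of those 16 the distal form alone was annotated as coding. Where stops differed, the distal protein was longer in 42 of 57, with a median of 412 residues for distal forms and 325 for proximal forms, and in 24 of 57 the lengths were within 30 residues of each other. Another gene overlapped 8 of the 102 on the same strand and 19 on the opposite strand, and the use of strand in counting is not stated, so their counts are less certain. The residue numbers compare the most-read models, which can also differ upstream of the last exon. The cleavage signals AATAAA or ATTAAA were searched on the transcribed strand in the last 40 bases of each leading model. They were found in 73.5% of distal and 64.7% of proximal models, against 77.4% of 3856 used last exons of all assessed genes. Separate terminal exons had one in 19 of 21 models of either form, and proximal exons that were also internal had one in 17 of 33, against 22 of 33 of their distal partners.

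At the edge of the rule, the second share was 20.3% in Epha7, 20.4% in the replication factor gene Orc4 and 20.5% in Dpy19l1, and outside it 19.5% in Cdadc1 and 19.2% in both March2 and Nfib. Of 32 genes listed for known alternative last exons, 19 had enough reads, 17 of those had reads at 2 or more acceptors, and 8 were members: Cdc42, Grin1, Gnao1, Gabbr1, Atp2a2, Homer1, Tpm3 and Slc1a2. The list was matched by gene name, so the acceptors used here need not be those of the known forms. In Gnao1, for instance, both forms kept the same stop. Second acceptors below the threshold held 15.4% of reads in Dclk1, 12.9% in Tpm1, 9.76% in Sept8, 8.22% in Ntrk2, 6.14% in Klc1 and 5.92% in Gfap.

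The libraries were next compared for the choice of acceptor. Distal shares differed by a median of 6.25 points (absolute) and by at most 35.6 points, in the actin-capping gene Tmod3, where 9 of 38 reads were distal in replicate 2 and 16 of 27 in replicate 1. The difference was under 10 points in 69 of 102 genes, the same acceptor led in both libraries in 91, and both acceptors held 20% or more in each library in 91. Shares in the libraries correlated across the 102 genes with r = 0.810, a description over genes that were chosen by these same reads. When genes were chosen in replicate 2 alone by the same rule, 49 of 56 also had both acceptors at 20% or more in replicate 1, and 53 of 59 chosen in replicate 1 did so in replicate 2.

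**Figure D3:**
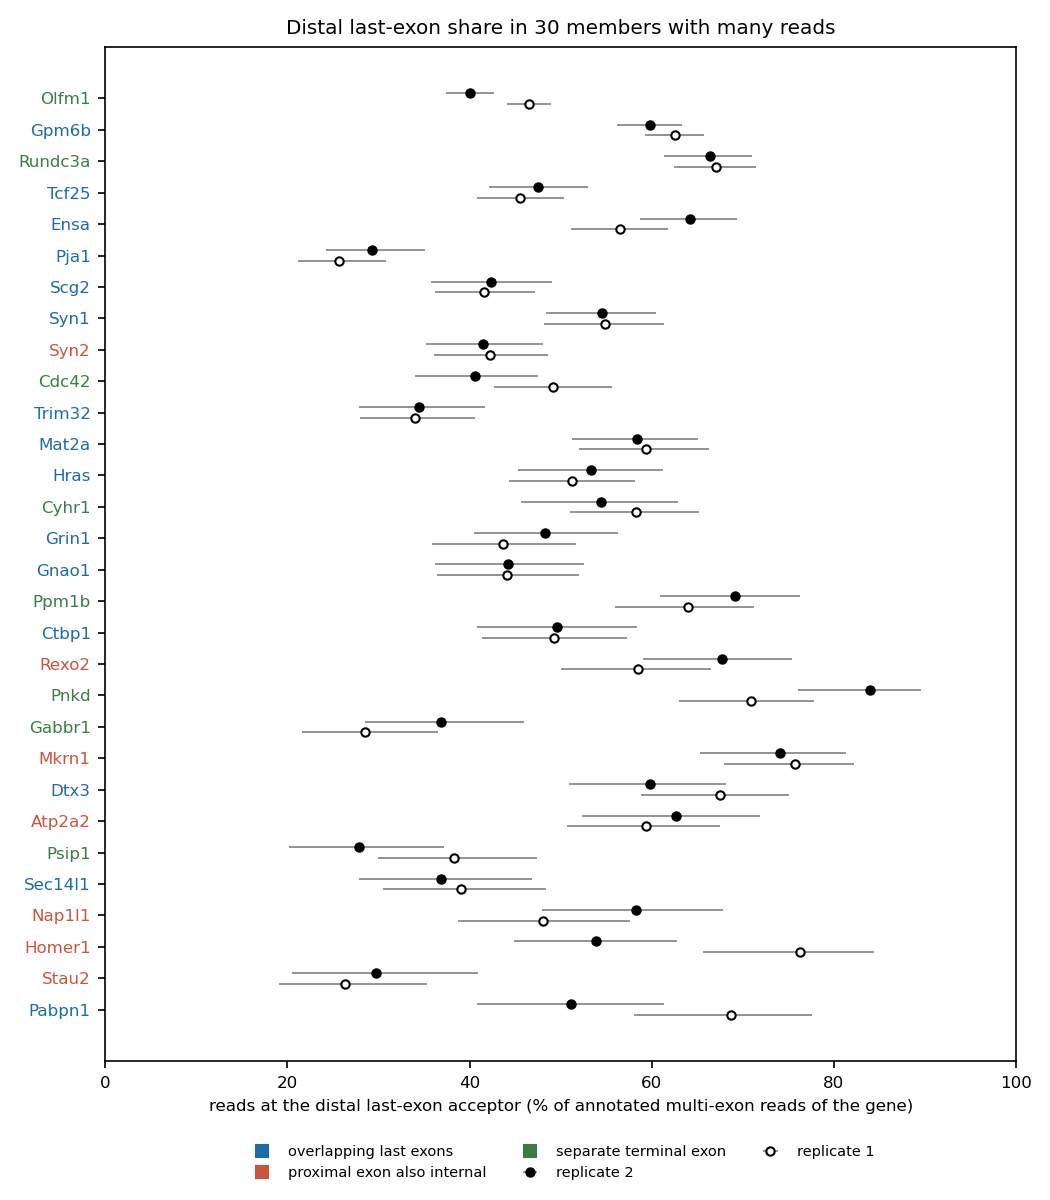
Share of reads at the distal acceptor in percent for 30 members with many reads, in replicate 2 (filled) and replicate 1 (open), with 95% Wilson intervals and gene names coloured by structural class. Most pairs of intervals overlap, and Homer1 has the widest gap, 53.9% in replicate 2 and 76.3% in replicate 1.

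Fisher's exact test of the leading acceptor, two-sided, was run on 845 genes and called 0 (0%) after Benjamini-Hochberg adjustment, with a smallest adjusted p of 0.317. At an unadjusted p under 0.05 there were 23 genes (2.72%), and 9 of the 100 members tested were among them. Members were chosen for shares between 20% and 80%, so no excess is read from that count. The 9 were Olfm1, Homer1, Pnkd, Pabpn1, Arl16, Tmod3, AC149090.1, Capn10 and Elavl4. Olfm1 had the smallest p, 0.000551 by Fisher's exact test, for a difference of 6.48 points, its proximal acceptor holding 60.0% in replicate 2 and 53.5% in replicate 1. On simulated reads of the 845 genes, with 200 changed at once, the test recovered 60% of differences of 20 points and 95.5% of differences of 40 points. Smaller differences were thus not detectable in many genes at this depth. Recovery among members alone, or with fewer genes changed, was not simulated, so these rates do not apply to either.

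**Figure D4:**
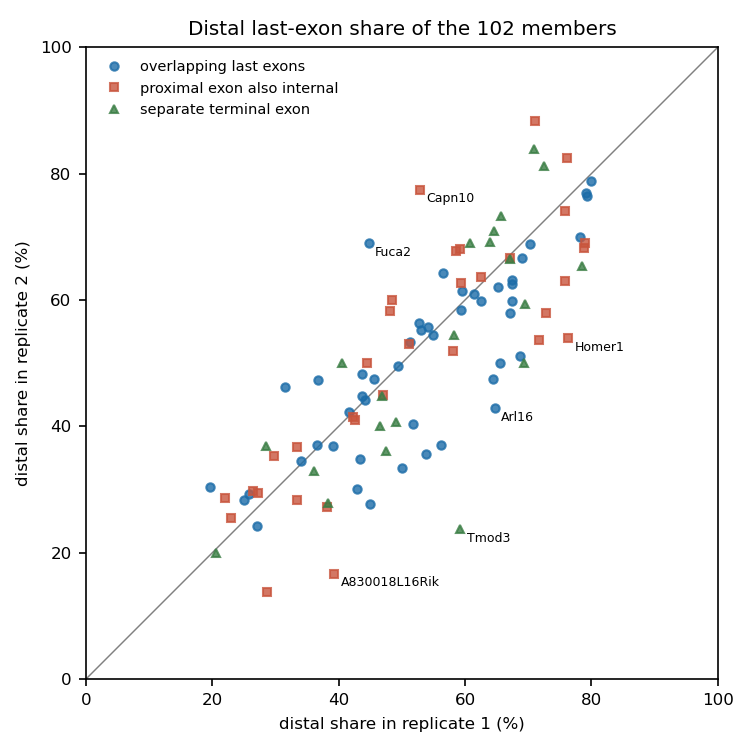
Share of reads at the distal acceptor in percent in replicate 2 (vertical) against replicate 1 (horizontal), 1 point per member by class, with the line of equal shares and the names of the genes farthest from it. Of the 102 genes, 69 lie within 10 points of the line, and Tmod3 is 35.6 points from it.

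Long reads also show which first exon each last exon was joined to, which the choice of genes did not use. For the 2 leading first donors, the splice sites that end the first exon, association with the 2 leading acceptors was tested by Fisher's exact test in each library and called when both passed an adjusted p of 0.05 in the same direction. Of 70 genes tested, 21 were called (30%), and 9 of the 23 members tested were: Gabbr1, Aatk, 2010300C02Rik, Mkrn1, Gpm6b, Cxxc5, Cyhr1, Zbtb18 and AC149090.1. In Gabbr1 and Cyhr1 a first donor lies past the proximal acceptor, so its reads can only be distal. Reads of the other donor, upstream of both acceptors, were distal in 0 of 70 in replicate 2 and 0 of 95 in replicate 1 for Gabbr1, and in 0 of 25 and 0 of 37 for Cyhr1. Without genes that have such a donor, 15 of 55 were called (27.3%), and 7 of 18 members. Only annotated models were counted, so a donor and an acceptor that no annotated model joins can have no reads together. Calls can follow from that limit, and values with other models added are given below.

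Gpm6b had the most reads among the members called. Reads from its leading first donor ended at the distal acceptor in 68.8% of 481 in replicate 2 and 67.9% of 588 in replicate 1. For reads from the other first donor, 105945 nt away, these shares were 42.9% of 247 in replicate 2 and 51.1% of 264 in replicate 1. Adjusted p by Fisher's exact test was 2.32e-10 in replicate 2 and 2.38e-05 in replicate 1. The gap was 25.9 points in replicate 2 and 16.7 points in replicate 1.

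Complete separation appeared in others. For 2010300C02Rik, with acceptors 3 nt apart, all 56 reads of the leading first donor in replicate 2 and all 40 in replicate 1 were proximal, and all 33 and 23 reads of the other donor were distal, with replicate 2 first. Aatk, a neuronal kinase gene, had 0 of 13 distal reads from the leading donor in replicate 2 and 0 of 10 in replicate 1, against 7 of 7 and 12 of 12 from the other. Cxxc5 and AC149090.1 were also fully separated in both libraries. For AC149090.1 this covers 56 annotated multi-exon reads of 1327 reads of the gene in replicate 2, and 74 of 1777 in replicate 1. In Mkrn1, reads of the second donor, 4 in replicate 2 and 7 in replicate 1, were all proximal, and in Zbtb18, a transcriptional repressor, so were 12 and 17. An annotated model is counted whole, so a first donor and an acceptor that occur in 1 model only are always read together. With combinations outside the annotation added, the pooled log2 odds ratio in Mkrn1 and Zbtb18 changed sign, to -0.31 against 6.61 and to -0.26 against 5.88. The call in Cxxc5 was lost, at 3.87 against 11.65. In AC149090.1 the ratio was 3.37 against 13.95, in 2010300C02Rik -6.98 against -14.41 and in Aatk -7.43 against -10.84. Gpm6b stood at 1.24 against 1.27.

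Olfm1, with the most reads of any member tested, did not pass in both libraries. Distal shares were 38.6% of 984 reads from the leading first donor and 44.8% of 288 from the other in replicate 2, and 45.4% of 1214 and 50.1% of 371 in replicate 1. Its adjusted p by Fisher's exact test was 0.151 in replicate 2, 0.245 in replicate 1 and 0.0302 with both libraries pooled.

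Reads outside the rule gave another view of the same acceptors. Suffix models, which match the 3' part of an annotated transcript and lack its 5' exons, had at least 10 reads at the 2 acceptors in 45 members. Their distal share was higher than that of the annotated models in 36 of 45, by a median of 11.3 points over all 45. It was higher in 9 of 9 separate terminal exons (median 22.4 points), 10 of 12 with an internal proximal exon (29.5 points) and 17 of 24 overlapping pairs (6.37 points). Atp2a2 had 79 suffix reads at the distal acceptor and 1 at the proximal, Gabbr1 had 39 and 3, and the integrin-binding nischarin gene Nisch had 106 and 1. In the same classes the distal model was the longer RNA in 17 of 21, 23 of 33 and 16 of 48 genes. The part of RNA length in these shares was not tested. Models with new combinations or new splice sites, with 10 or more reads in 54 members, had a higher distal share in 36 of 54, by a median of 11.2 points. Tpm3 had 362 such reads at the distal acceptor and 11 at the proximal, while Ctbp1 had 44 and 633. Both acceptors held between 20% and 80% in 26 of the 45 members by suffix reads and in 33 of the 54 by new combinations. Across genes, the distal share by annotated models correlated with that by suffix reads at r = 0.408 and with that by new combinations at r = 0.476. The median absolute differences were 14.2 points for suffix reads and 17.7 points for new combinations.

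**Figure D5:**
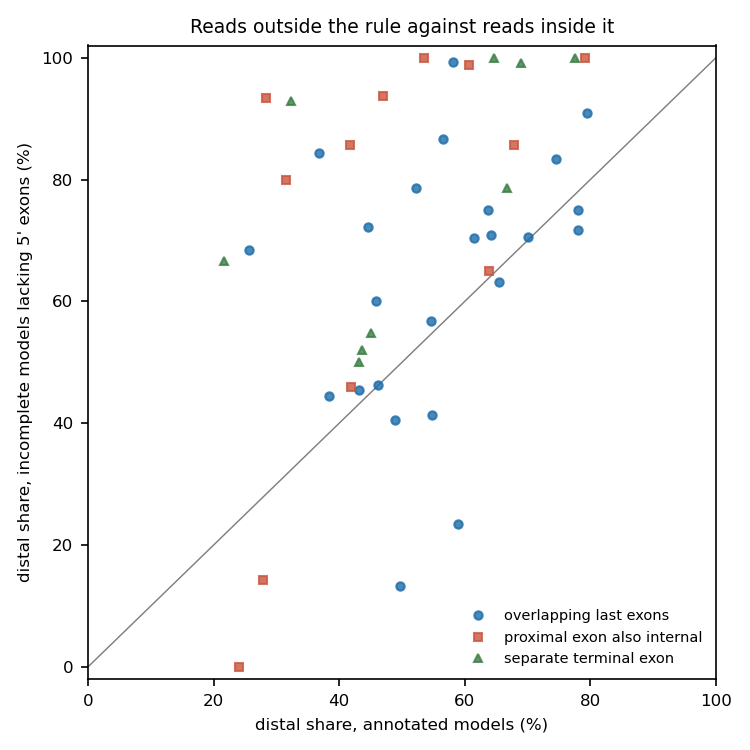
Share of reads at the distal acceptor in percent among incomplete models lacking 5' exons (vertical) against annotated models (horizontal), over the reads at the 2 leading acceptors, with 1 point for each of 45 members with at least 10 incomplete reads, both libraries pooled, by class. The line marks equal shares, and 36 of the 45 points lie above it.

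Total levels of the genes were compared last. An exact binomial test of gene counts, two-sided, called 182 of 9143 genes (1.99%), and 6 of 102 members, 5 higher in replicate 2 and 1 lower. The median log2 ratio of replicate 2 over replicate 1, on CPM + 1, was 0.02 over members and 0.03 over all genes. Homer1 stood at 230 CPM in replicate 2 and 136 CPM in replicate 1, a log2 ratio of 0.76 (counting SE 0.18, exact binomial adjusted p = 0.00368). Pabpn1, the nuclear poly(A)-binding protein, stood at 190 CPM in replicate 2 and 108 CPM in replicate 1, a log2 ratio of 0.80 (SE 0.20, exact adjusted p = 0.00657). The gene Gm20521 overlaps Pabpn1 on the same strand, and from annotated models alone its log2 ratio was 0.34 and not called. The log2 ratios of 2010300C02Rik, Grin1 and Syn1 were 0.57, 0.41 and 0.38, and that of AC149090.1, on an unplaced scaffold, was -0.23. Of these, Grin1 and Syn1 were not called with DESeq2 size factors, and 2010300C02Rik, Grin1 and AC149090.1 were not called from annotated models alone, at log2 ratios of 0.75, 0.25 and -0.15.

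Genes of the cleavage machinery and of last-exon regulation were read beside the members. Of 22 cleavage and polyadenylation factors, 20 were tested at gene level, 1 was higher in replicate 2 (Pabpn1) and 0 were lower by the exact binomial test, with a median log2 ratio of 0.15. Of 28 regulators of last-exon choice, 26 were tested and 0 were called, with a median of 0.14. In these lists Pabpn1, the poly(A) polymerase gene Papola, Qk, the neuronal RNA-binding protein gene Elavl4 and the splicing repressor gene Ptbp2 were themselves members. Papola held 52.9% of 34 reads at the distal acceptor in replicate 2 and 51.1% of 45 in replicate 1. The distal shares of Pabpn1 were 51.1% in replicate 2 and 68.7% in replicate 1, and those of Elavl4 were 35.6% and 53.7%.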

How the data were processed

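The authors deposited, for each library, the count of long reads on every transcript model (whole numbers) and the exons of these models. Per the file headers, each table holds 1 library, and the TALON program is named as the source of the models. Per the labels, coordinates are on mm10. The aligner, its settings, the treatment of read ends and any correction of read errors are not given in the sources used. Models were matched by identifier to GENCODE M21 transcripts. Intervals and tests cover counting error only.

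The acceptor of a last exon was read from the exon coordinates. Reads of models named Known with 2 or more exons were summed per acceptor for protein-coding genes. Proximal exons were set apart by whether any annotated multi-exon model with reads used their acceptor internally. Spike-in models were left out. Models that a library does not list count as 0 there. Tests were Fisher's exact test (20 or more reads in each library, and for first donors 5 or more pooled reads per margin) and an exact binomial test of genes with 20 or more reads, adjusted by Benjamini and Hochberg at 0.05. Log2 ratios add 1 CPM. CPM is relative to a library's reads on annotated genes.

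The members and gene lists were chosen with earlier results of these data known. Named were the 25 members with the most reads, the 6 with the most in each class, members called in a test or on the list of known alternative last exons, those at the threshold and those with extreme distances. 1 gene that this rule takes is not reported here. Genes named outside that rule (Lamp2, Psip1, Mapk10, Qk, Lmna, Tmod3, Papola, Nisch, Cep83 and others) were chosen after their values were seen. The intron and downstream genome sequence was not used here. Tests were checked on simulated data. Python 3.11.15, SciPy 1.17.1, pandas 2.3.3, R 4.3.3, edgeR 4.0.16 (TMM) and DESeq2 1.42.0 (size factors) were used.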

Additional observations from a re-analysis of the deposited data

Results flagged for a closer look

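Reads of unannotated models that ended in a last exon no annotated model of the gene has were outside the comparisons above, and each site below had more than 3 reads in both libraries. AC149090.1 had 100 such reads at 1 acceptor, 23 in replicate 2 and 77 in replicate 1, at a site annotated as an internal exon. It had 8 at another, 4 in each library. Psip1 had 20, 9 in replicate 2 and 11 in replicate 1, at an acceptor 54 nt from a used one. Slc1a2 had 18, 11 in replicate 2 and 7 in replicate 1, at an acceptor 792 nt from a used one, beside 79 reads on its annotated models.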

How the results depend on the processing

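The number of members depends on the rule: 163 at a 10% share, 201 with at least 20 pooled reads, 54 with at least 100, 258 with all multi-exon models, 52 with overlapping last exons merged, and 56 to 59 in 1 library alone. It was 69 at 30% and 92 with acceptors within 12 nt merged. The number of genes assessed also changes with the read minimum, the models and the libraries counted. Counts under those settings are therefore not shares of the same genes. The test of shares called 0 genes in 4 alternatives and 1, Ptgds, which is not a member, with all multi-exon models. Association of first donor and last acceptor was called in 48 genes with the libraries pooled, 23 to 31 in 1 library alone and 15 to 16 in the other alternatives, against 21. With models outside the annotation, 6 members were called against 9: the log2 odds ratios of Mkrn1 and Zbtb18 turned to -0.31 and -0.26, and Cxxc5 lost its call at 3.87. Gene level calls were 55 from annotated models alone and 182 to 243 under other settings. The median distal share over 83 members was 62.5% in unannotated models against 56.9% in annotated ones. The distal share moved by more than the spread between replicates in 66 of these members and by less in 17. That spread rests on 1 value per library. The unannotated share rested on only 10 reads in some members, such as Pja1. Counting error of the unannotated share was left out, so the count of 66 cannot tell a shift from sampling. The causes of the differences were not tested. No paired analysis was possible because there is 1 group. Leaving out donors past the proximal acceptor was added after seeing the data.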
